A study of Mus musculus with 4 samples.

Results

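Pericytes and vascular smooth muscle cells, together called mural cells, wrap the small and larger vessels of the testis. Mural cells were selected on their own transcripts, as barcodes with 1000 to 4500 detected genes that carried at least 2 UMIs (unique molecular identifiers, 1 per captured transcript) of *Rgs5* and at least 1 UMI of at least 2 of *Notch3*, *Mcam*, *Cspg4*, *Myh11*, *Ndufa4l2* and *Higd1b*. Barcodes with more than 1 UMI of *Cldn5* plus *Pecam1*, of *Cyp11a1*, or of *Ddx4* plus *Dazl* were left out, since these genes mark endothelial, steroidogenic and germ cells. The rule found 241 cells among 22567 retained barcodes, 31 of them in control 1, 119 in control 2, 41 in the first and 50 in the second *Sox17*-cKO library. Wherever 4 values follow each other, they are those of control 1, control 2, *Sox17*-cKO 1 and *Sox17*-cKO 2.

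Pericytes sit within the basement membrane of capillaries, and smooth muscle cells form the contractile coat of arterioles, arteries and veins. Endothelial cells recruit both through PDGFB, which binds the receptor PDGFRB on the mural cell, and maintain them through Notch ligands that act on NOTCH3. Smooth muscle cells carry a dense actin and myosin apparatus, whereas pericytes carry less of it and are rich in ATP-sensitive potassium channel subunits. The seminiferous tubule has a contractile cell of its own, the peritubular myoid cell, which shares many of these contractile genes but lies on the tubule wall and not on vessels.

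The libraries came from male C57BL/6 mice at postnatal day 14. The 2 *Sox17*-cKO libraries are labelled SF1Cre:Sox17flox/flox, a deletion of the transcription factor gene *Sox17* by a Cre recombinase under the promoter of *Nr5a1*, a gene of gonadal somatic cells. The 2 control libraries are labelled SF1Cre, whereas the methods of the study describe Cre-negative Sox17flox/flox littermates, so whether controls carried Cre is not settled. Each library pooled the rete testis region with adjacent tubules of 3 pups. A supernatant rich in interstitial cells was discarded during dissociation, so mural cells that left with it were not captured. Which vessels the captured cells came from is not known.

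The 4 libraries held 9388 to 13364 barcodes each, of which 5174 to 6135 were retained, with medians of 5040 to 7872 UMIs. Libraries shared 20 to 43 barcodes pairwise, but no mural cell had a barcode found among the mural cells of another library. The summed mural cells held 226837, 882200, 319669 and 290672 UMIs, so control 2 carried 119 of the 241 cells and the smallest counting error. Median UMIs per mural cell were 5821, 6945, 6918 and 4969.5. Cell Ranger 6.0.2 made both replicate 1 libraries and 6.1.2 both replicate 2 libraries, so software version and replicate number cannot be told apart.

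The genes of the rule are described here without a test, because they chose the cells. Levels are given as CPM, the UMIs of a gene per 1000000 UMIs of the summed cells. *Rgs5*, a brake on G-protein signalling and the defining gene of the rule (chr1:169655501-169695813, GRCm38), was at 4523, 3048, 3188 and 2663 CPM in the mural cells of the 4 libraries. Single cells carried a median of 15 and at most 276 *Rgs5* UMIs. *Notch3*, the mural Notch receptor (chr17:32120820-32166852), was at 511, 652, 476 and 1056 CPM and was found in 224 of the 241 cells. *Mcam*, an adhesion receptor (chr9:44134469-44142727), was at 379, 150, 303 and 120 CPM and was found in 140 cells. *Cspg4*, the NG2 proteoglycan (chr9:56865033-56899870), was at 163, 117, 172 and 138 CPM and was found in 113 cells. For comparison, 6800 germ cells had a median of 8756.5 UMIs against 6284 in mural cells. Among them a UMI of *Rgs5* was found in 0.559%, of *Notch3* in 0.985% and of *Cspg4* in 0.471%. *Mcam* was found in 20.97% of germ cells, so a single *Mcam* UMI is weak evidence of a mural cell.

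All 6 supporting genes were detected in 33 cells, 5 in 74, 4 in 62, 3 in 39 and the minimum of 2 in 33. At the edge of the rule, 13 members had exactly 2 *Rgs5* UMIs, and 24 otherwise fitting barcodes had 1 and stayed outside. With 2 or more *Rgs5* UMIs, 14 barcodes had 1 supporting gene and 4 had none. The germ, endothelial and *Cyp11a1* limits kept out 28, 7 and 3 barcodes that met the other criteria.

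*Sox17* itself had 0 UMIs in the mural cells of all 4 libraries, which among 1719378 UMIs allows up to 1.745 CPM. It was at 288.6 CPM in 50 endothelial cells, chosen by *Cldn5* and *Pecam1* UMIs and pooled over the libraries. The deletion could therefore not be checked in mural cells. *Nr5a1*, whose promoter drives the Cre, was found at 1 UMI each in 24 mural cells, at 8.82, 6.80, 18.8 and 34.4 CPM, beside 23.6 ± 10.6 CPM (SD, n = 4 libraries) in myoid-like cells.

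Mural cells made up 0.505% of retained barcodes in control 1 (31 of 6135, 95% exact binomial interval 0.344 to 0.716%), and 2.30% in control 2 (1.91 to 2.75%). The *Sox17*-cKO libraries had 0.725% (0.521 to 0.983%) and 0.892% (0.663 to 1.17%). Both *Sox17*-cKO libraries lay between the 2 controls. The mean share was 1.40% ± 1.27 in controls and 0.809% ± 0.118 in *Sox17*-cKO libraries (SD, n = 2 each), a difference that did not pass an exact two-sided permutation test over libraries (p = 1.0, smallest possible 0.333). Without control 2 the difference turned from -0.594 to 0.303 percentage points. The intervals cover counting error only. Stromal cells, chosen as below, also had their highest share in control 2, at 7.06% of barcodes against 1.55% in control 1, but were at 5.35% in *Sox17*-cKO 2 and 1.84% in *Sox17*-cKO 1. Myoid-like cells were at 9.06, 24.6, 5.61 and 23.0%, so both classes were high in *Sox17*-cKO 2, where the mural share was 0.892%.

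**Figure D1:**
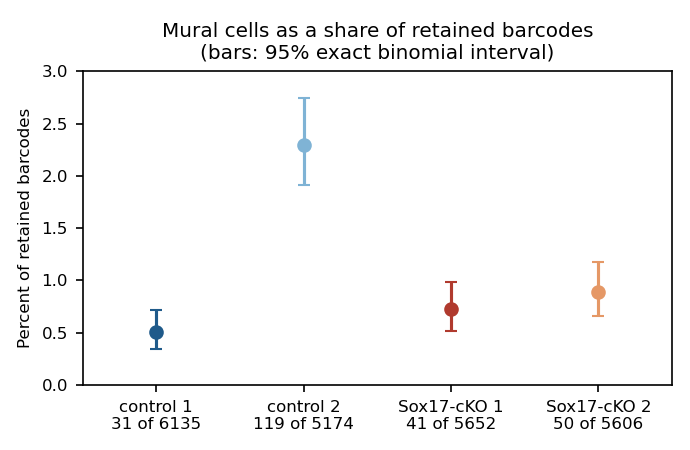
Percent of retained barcodes that met the mural rule in each of the 4 libraries (y axis), with 95% exact binomial intervals as bars and cell counts under each point. Control 2 stands at 2.30% and the other 3 libraries between 0.505% and 0.892%.

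To see which genes set mural cells apart from their most similar neighbours, the sums of each class in each library were compared by the edgeR quasi-likelihood test with the library as a block (8 sums per test, Benjamini-Hochberg adjusted p under 0.05). Myoid-like cells (3433) had at least 3 *Acta2* UMIs, at least 1 *Myh11* UMI and 0 of *Rgs5*, *Higd1b* and *Ndufa4l2*. Stromal cells (864) had at least 1 *Pdgfra* and 2 *Dcn* UMIs, at most 1 of *Acta2* and 0 of *Myh11* and *Rgs5*. Genes that chose either class were left out of the calls, but genes that follow them in single cells were not, so part of each difference comes with the selection. The filter on low counts kept a gene that was high enough in 1 of the 2 classes. *Nrarp*, *Hey2*, *Gja4*, *Trpc6*, *Agtr1a*, *Angpt2* and *Pdgfb*, near 0 in myoid-like cells, thus entered through their mural level and could hardly come out lower. The same held for other genes low in myoid-like cells, among them *Cox4i2*, *Fabp4*, *Esam*, *Kcnj8*, *Notch1*, *Hey1*, *Lama5* and *Synpo2*. Counts of higher and lower genes in a list are partly set by this filter. Of 9856 genes tested against myoid-like cells, 10.9% were higher and 11.0% lower in mural cells, and of 6482 tested against stromal cells 16.2% were higher and 13.5% lower. Log2 fold changes are given with their standard error.

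The mural genes that the rule did not use were mostly higher in mural cells. Of 20 such genes on a list, 19 were tested against myoid-like cells: 16 were higher, 1 lower and 2 did not pass, with a median log2 fold change of 2.42 against -0.01 over all genes tested. Against stromal cells 13 of 17 were higher and none lower, with a median of 3.41 against 0.00. *Pdgfrb*, the PDGF receptor through which mural cells are recruited, was at 308.6, 393.3, 272.2 and 608.9 CPM. Myoid-like cells had 28.7 ± 1.86 CPM (SD, n = 4) and stromal cells 74.8 ± 28.2, so no library overlapped. The fold changes were 3.73 ± 0.19 (adjusted p = 2.49e-08) and 2.52 ± 0.32 (adjusted p = 0.000248).

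*Gja4*, the gap junction protein connexin 37, was at 436.4, 242.6, 278.4 and 302.7 CPM in mural cells and at 1.31 ± 2.10 and 2.29 ± 1.77 CPM in myoid-like and stromal cells (log2 fold changes 8.61 ± 0.44 and 7.21 ± 0.28). Endothelial cells, where connexin 37 is also known, held 308.3 CPM. *Cox4i2*, a cytochrome oxidase subunit, was at 282.1, 257.3, 172.1 and 378.4 CPM against 2.37 ± 0.348 in myoid-like cells (log2 fold change 6.91 ± 0.20, adjusted p = 5.38e-10). *Gm13889*, a gene without a settled role, reached 925.8 to 2071 CPM in the mural libraries and 14.3 ± 1.86 in myoid-like cells. *Kcnj8*, the pore subunit of the vascular ATP-sensitive potassium channel, was at 44.1, 148.5, 46.9 and 175.5 CPM against 4.84 ± 2.09 in myoid-like cells (4.39 ± 0.24). Its partner *Abcc9* was higher against myoid-like cells (2.27 ± 0.39, adjusted p = 0.000816) but did not pass against stromal cells (1.31 ± 0.46, adjusted p = 0.0584). *Vtn*, the matrix protein vitronectin, had 223 UMIs in mural cells and 1 in myoid-like cells, a ratio of 3228 with a 95% counting interval of 574 to 128068. *Art3*, a member of the ADP-ribosyltransferase family, was the exception on the list: it was lower in mural than in myoid-like cells (-2.31 ± 0.28).

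In each direction, the 5 genes with the smallest adjusted p are named. Against myoid-like cells, the higher ones were *Crip1*, *Cox4i2*, *Fabp4*, *Tinagl1* and *Mustn1*. *Crip1*, a small LIM-domain protein, was at 4915, 2804, 4780 and 3402 CPM in mural cells against 80.5 ± 26.3 in myoid-like and 98.3 ± 8.35 in stromal cells (log2 fold changes 5.61 ± 0.13 and 5.27 ± 0.17). *Fabp4*, a fatty acid carrier also found in capillary endothelium, was at 264.5, 142.8, 234.6 and 406.0 CPM against 1.19 ± 0.760. The lower ones were *Cyp26b1*, which degrades retinoic acid, the laminin and collagen chains *Lamc3* and *Col4a3*, the hormone gene *Sct* and the peptidase gene *Mme*. *Cyp26b1* was at 748.2 ± 140.7 CPM in myoid-like cells and at 0.00 to 13.2 CPM in mural libraries (-6.78 ± 0.28, adjusted p = 4.87e-09). Against stromal cells, *Actg2*, *Crip1*, *Map3k7cl*, *Tpm2* and *Tagln* led the higher genes and *Peg3*, *Dlk1*, *Vcam1*, *Cyp17a1* and *Penk* the lower. *Dlk1*, a Notch-like membrane protein of interstitial progenitors, was at 461.7 ± 331.6 CPM in stromal cells and at 20.6 CPM or less in each mural library (-5.33 ± 0.25).

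**Figure D2:**
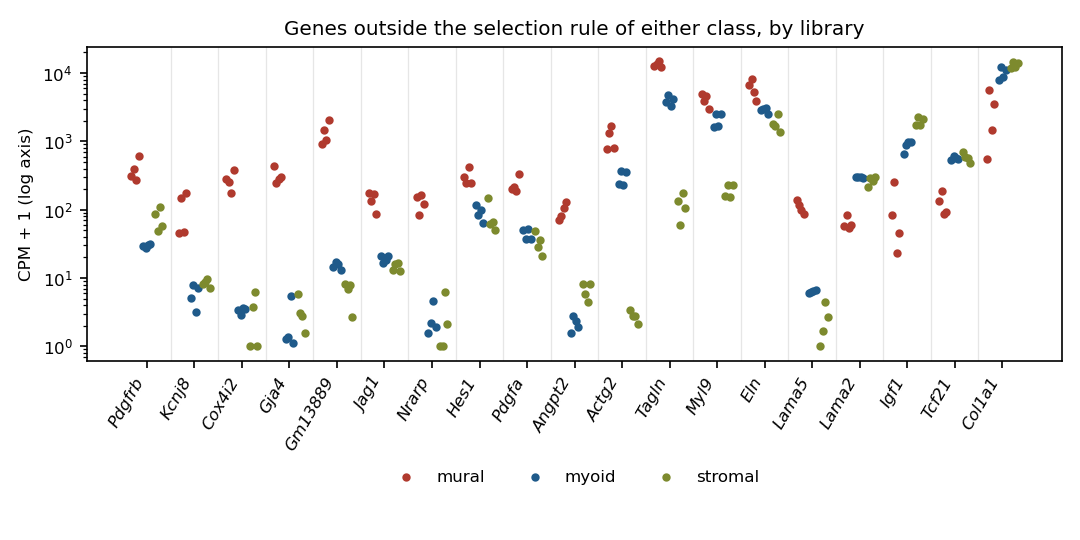
Level in CPM plus 1 on a log axis (y) of 19 genes that chose no class, with 1 point per library for mural (red), myoid-like (blue) and stromal (green) cells. From *Pdgfrb* to *Lama5* the mural points lie above both other classes, and *Lama2*, *Igf1* and *Tcf21* lie below both.

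The contractile apparatus was shared with myoid-like cells but was not at the same level. Of 15 contractile genes tested, 10 were higher in mural cells, 1 lower and 4 did not pass (median log2 fold change 0.78). Against stromal cells all 15 tested were higher (median 3.17). Stromal cells were chosen for at most 1 *Acta2* UMI and 0 of *Myh11*, so low levels of genes that go with these were partly set by the selection. This holds also for *Actg2*, *Tpm2* and *Tagln* among the leading genes above. *Tagln*, the actin-binding protein transgelin, was at 12498, 13370, 14868 and 12416 CPM in the mural libraries and at 4022 ± 635.5 in myoid-like cells (1.70 ± 0.12, adjusted p = 5.49e-07). *Actg2*, the gamma actin of smooth muscle, was at 775.9, 1304, 1652 and 791.3 CPM, against 295.9 ± 73.2 in myoid-like and 1.75 ± 0.518 in stromal cells (1.86 ± 0.22 and 9.37 ± 0.21). *Synpo2*, a Z-disc and actin-bundling protein, was at 141.1, 78.2, 168.9 and 55.0 CPM against 6.23 ± 1.22 (3.97 ± 0.23). *Cnn1*, the actin regulator calponin, overlapped between mural (203.0 to 638.2 CPM) and myoid-like cells (312.1 ± 83.5) and did not pass (0.44 ± 0.27, adjusted p = 0.307). *Mylk*, the kinase that activates smooth muscle myosin, was the one lower gene (-0.45 ± 0.13, adjusted p = 0.0217), a call lost with DESeq2 and without control 2 or *Sox17*-cKO 2. *Acta2* and *Myh11* helped choose the myoid-like cells and were not tested.

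Many smooth muscle genes are driven by serum response factor through the CArG box, searched here only as CCWWWWWWGG, where W is A or T. The promoters of 2 genes of the contractile list are shown to set the gene group beside its control sequence, as 250 bases before the start site from RefSeq (GRCm38.p6): that of *Myl9*, a myosin light chain, which holds a CArG box (capitals) 161 bases before the start, and that of *Acta2*, in which no exact match was found.
*Myl9* (chr2:156775214-156775463, plus strand): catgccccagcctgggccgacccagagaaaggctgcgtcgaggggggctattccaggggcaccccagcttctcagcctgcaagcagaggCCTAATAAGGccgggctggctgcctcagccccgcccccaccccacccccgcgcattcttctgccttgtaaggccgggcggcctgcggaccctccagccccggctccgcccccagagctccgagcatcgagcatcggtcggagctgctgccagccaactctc
*Acta2* (chr19:34255374-34255623, minus strand): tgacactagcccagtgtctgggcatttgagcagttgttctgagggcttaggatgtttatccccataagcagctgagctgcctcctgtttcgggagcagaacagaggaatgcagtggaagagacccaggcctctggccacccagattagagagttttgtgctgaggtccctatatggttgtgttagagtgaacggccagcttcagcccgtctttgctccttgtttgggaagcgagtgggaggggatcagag
Forms that differ from the pattern at 1 base were not counted. The *Acta2* sequence holds such forms, ccctatatgg and ccttgtttgg, so it cannot be said to lack a CArG-type element. The CArG pattern is its own reverse complement, so 1 search covers both strands. The windows searched were of 300 bases that reach 50 past the start. The exact pattern was found for 2 of the 14 contractile genes with an entry (of 17 listed). *Myl9* had it in its 1 promoter and *Myl6* in 1 of its 2. Counted by promoter and not by gene, it was in 1.63% of all 32851 promoters. *Myl9* was at 4929, 3862, 4614 and 2948 CPM in mural cells, against 2087 ± 518.2 in myoid-like and 190.9 ± 41.4 in stromal cells (0.94 ± 0.20 and 4.39 ± 0.22). Whether the box acts in these cells was not tested.

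Most Notch pathway genes tested were higher in mural cells. Of 13 pathway genes 9 passed the filter on low counts against myoid-like cells, and 7 of these were higher and none lower (median log2 fold change 2.69). Of 8 tested against stromal cells 6 were higher (median 2.56). Against myoid-like cells *Nrarp*, *Hey2*, *Hey1* and *Notch1* passed the filter through their mural level and could hardly come out lower. The count of 7 higher is thus partly set by the filter. *Nrarp* and *Hey2* entered through their mural level against stromal cells too. *Notch1*, a second receptor beside *Notch3*, was at 74.9, 40.8, 37.5 and 55.0 CPM against 4.88 ± 1.56 in myoid-like cells (3.41 ± 0.30). The ligand *Jag1*, which mural cells are known to present to each other, was at 176.3, 131.5, 168.9 and 86.0 CPM against 18.2 ± 2.04 (2.89 ± 0.20, adjusted p = 4.67e-07). The endothelial-type ligands *Dll1* and *Dll4* had at most 1 UMI each in the mural cells of any library.

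The target genes went the same way. *Nrarp*, a feedback inhibitor induced by Notch, was at 149.9, 82.8, 165.8 and 120.4 CPM in mural cells against 1.58 ± 1.35 in myoid-like and 1.58 ± 2.48 in stromal cells (6.39 ± 0.29 and 6.72 ± 0.44). *Hes1*, a repressor downstream of many signals, was at 299.8, 242.6, 425.4 and 244.3 CPM against 89.5 ± 21.6 (1.72 ± 0.15). *Hey2*, a repressor known from arteries, was at 92.6, 73.7, 93.8 and 41.3 CPM in mural cells. It had 0 UMIs in stromal cells, so it was at least 140.1-fold higher against a floor of 3 counts over that class. *Rbpj*, the DNA-binding partner of all Notch receptors, was at 75.1 to 99.8 CPM in mural cells and 71.5 ± 4.04 in myoid-like cells and did not pass (0.26 ± 0.16, adjusted p = 0.306).

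In the PDGF pathway the receptors ran in opposite directions. *Pdgfra*, the receptor of fibroblast-type cells, was at 13.2, 44.2, 15.6 and 6.88 CPM in mural cells and at 457.1 ± 28.6 in myoid-like cells (-4.27 ± 0.28), whereas *Pdgfrb* was higher, as above. The ligand *Pdgfa* was at 202.8, 214.2, 187.7 and 330.3 CPM against 42.9 ± 7.70 in myoid-like and 32.4 ± 11.8 in stromal cells (2.44 ± 0.20 and 3.01 ± 0.28). *Pdgfb*, the ligand of endothelial origin, had 39 UMIs in mural cells, at 39.7, 14.7, 18.8 and 37.8 CPM. This was above the 0.217 ± 0.183 CPM of myoid-like cells (6.71 ± 0.58, adjusted p = 3.00e-06) and 42.7-fold the pooled level of stromal cells, where 3 UMIs were found (95% counting interval 13.6 to 216.0). Its pooled level in endothelial cells was 173.7 CPM.

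Both angiopoietin ligands were present without their receptor. *Angpt1*, which stabilises endothelium, was at 57.3, 52.1, 59.4 and 24.1 CPM in mural cells against 8.89 ± 1.62 in myoid-like cells (2.43 ± 0.28). *Angpt2*, which can oppose it, was at 70.5, 80.5, 103.2 and 127.3 CPM against 1.16 ± 0.518 (6.18 ± 0.31). The receptor gene *Tek* and its partner *Tie1* had 0 UMIs in mural cells, which allows up to 1.745 CPM, and *Tek* was at 187.8 CPM in endothelial cells. Of the whole list of 16 angiopoietin, VEGF and S1P genes, 12 were tested against myoid-like cells, with 5 higher and 2 lower.

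Genes of vascular tone were mostly higher in mural cells. Of 15 tested against myoid-like cells 13 were higher, 1 lower and 1 did not pass (median log2 fold change 1.90). *Gucy1b1*, a subunit of the nitric oxide receptor, was at 330.6, 225.6, 275.3 and 285.5 CPM against 20.7 ± 3.05 (3.69 ± 0.15, adjusted p = 4.69e-09). *Pde3a*, which breaks down cyclic AMP in smooth muscle, was at 445.3, 337.8, 369.1 and 326.8 CPM against 39.5 ± 4.19 (3.17 ± 0.14). *Trpc6*, a cation channel opened by vasoconstrictors, was at 61.7, 63.5, 40.7 and 61.9 CPM against 1.68 ± 1.50 (5.20 ± 0.38). *Agtr1a*, the angiotensin II receptor, was less even, at 22.0, 51.0, 15.6 and 99.8 CPM, and higher than the 0.938 ± 0.922 CPM of myoid-like cells in every library (5.71 ± 0.41).

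TGF-beta and BMP genes were split. Of 18 tested against myoid-like cells 6 were higher, 4 lower and 8 did not pass (median log2 fold change 0.13). *Tgfb2*, one of 3 TGF-beta ligands, was at 370.3, 389.9, 369.1 and 488.5 CPM against 77.6 ± 6.51 in myoid-like and 132.7 ± 33.8 in stromal cells (2.34 ± 0.14 and 1.61 ± 0.16). *Id4*, a helix-loop-helix inhibitor that BMPs can induce, was at 136.7, 295.9, 93.8 and 282.1 CPM against 31.1 ± 2.50 and 13.3 ± 7.63 (2.67 ± 0.26 and 4.48 ± 0.43). The receptor genes *Tgfbr1* and *Tgfbr2* did not pass in either comparison.

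The basement membrane genes differed by chain. Of 13 tested, 6 were higher and 4 lower than in myoid-like cells. *Lama5*, the laminin alpha 5 chain of vessel walls, was at 136.7, 115.6, 97.0 and 86.0 CPM against 5.33 ± 0.333 (4.30 ± 0.22), and *Lama2*, the alpha 2 chain, was at 57.3, 82.8, 53.2 and 58.5 CPM against 295.6 ± 2.68 (-2.21 ± 0.16). No library of one class reached the other for either chain. *Col18a1*, the source of endostatin, was at 246.9, 260.7, 337.8 and 110.1 CPM against 9.68 ± 5.14 (4.75 ± 0.33). *Eln*, the elastin of arterial walls, was at 6630, 8102, 5293 and 3843 CPM against 2856 ± 240.6 in myoid-like and 1846 ± 468.0 in stromal cells (0.98 ± 0.14 and 1.68 ± 0.17).

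Interstitial and fibroblast genes were mostly lower in mural cells. Of 9 interstitial progenitor genes tested against stromal cells 7 were lower and 2 higher, the higher being *Nes*, the filament protein nestin, and the nuclear receptor *Nr2f2*. *Tcf21*, a transcription factor of that lineage, was at 132.3, 187.0, 84.5 and 92.9 CPM in mural cells against 565.7 ± 37.0 in myoid-like cells (-2.23 ± 0.18). Of 13 matrix and fibroblast genes tested against stromal cells 10 were lower and 3 higher. The 3 higher were *Eln*, *Postn* and *Fn1*. *Col1a1*, a fibrillar collagen chain, was at 542.2, 5705, 1452 and 3502 CPM in mural cells, with control 1 lowest, against 13106 ± 1266 in stromal cells (-2.64 ± 0.43, adjusted p = 0.00113). *Postn*, the matrix protein periostin, passed against myoid-like cells (1.52 ± 0.37, adjusted p = 0.00936), a call lost without control 2 (adjusted p = 0.0511) or *Sox17*-cKO 2 (adjusted p = 0.0820).

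Part of that spread lay in a minority of cells. At least 2 UMIs of *Lum*, the fibroblast proteoglycan lumican, were found in 37 of the 241 mural cells. Control 1 had 0 of 31 and control 2 had 29 of 119, while *Sox17*-cKO 1 had 5 of 41 and *Sox17*-cKO 2 had 3 of 50. In a pooled description with no test, these 37 cells had 14080 CPM of *Col1a1* against 1299 in the other 204, and 4594 against 168.0 CPM of *Dcn*. Of the 3 matrix genes higher than in stromal cells, *Postn* was at 1834 against 431.3 CPM and *Fn1* at 574.6 against 373.9. *Eln* was at 4634.5 against 7174.9 CPM pooled, but higher in the *Lum*-rich cells of 2 libraries. Of the rule's own genes, *Rgs5* was at 1390 against 3658 CPM and *Cspg4* at 17.4 against 166.6. Mural genes outside the rule ranged widely: *Gja4* was at 17.4 against 352.1 CPM and *Gm13889* at 542.7 against 1633, whereas *Pdgfrb* was close, at 377.3 against 400.8 and higher in the *Lum*-rich cells of *Sox17*-cKO 1. *Ednra*, the endothelin receptor of smooth muscle, was higher in them, at 298.9 against 173.8 CPM and in all 3 libraries that had such cells. *Acta2* was at 7002 against 20264 CPM. Their median depth was higher, 8909 against 5969 UMIs. The 37 cells thus go against the defining markers in part, and whether they are fibroblasts, mixed droplets or another mural state was not tested. With them left out, a step chosen after the data were seen, 1135 genes were higher and 1280 lower than in myoid-like cells.

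Single mural cells also varied in contractile and pericyte-type genes. The 17 contractile genes took from 0.226 to 17.7% of the UMIs of single mural cells, with medians of 4.87, 3.75, 5.42 and 3.67% in the 4 libraries. Myoid-like cells had a median of 3.02% and stromal cells of 0.290%. *Higd1b*, a mitochondrial protein often used as a pericyte marker, was found in 15, 52, 19 and 40 cells of the 4 libraries, 126 of 241 in all, and in 0.132% of germ cells. Cells with and without a *Higd1b* UMI had medians of 5709 and 7185 UMIs. Because *Higd1b* is one of the supporting genes, cells without it needed 2 others. Levels of the other supporting genes, *Myh11* among them, are therefore shaped by the rule when the 2 sides are compared.

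Against cells without *Higd1b*, the 126 cells with it had higher levels of *Cox4i2* (446.3 against 94.8 CPM), *Agtr1a* (91.2 against 9.03), *Abcc9* (109.2 against 26.0) and *Kcnj8* (154.7 against 88.1) in all 4 libraries. Several matrix genes were lower in them in all 4 libraries, among them *Dcn* (128.4 against 1927 CPM), *Mgp*, a matrix protein that restrains calcification (1003 against 5139), and *Col1a1* (1648 against 5943), whereas *Col5a1*, a minor fibrillar collagen chain, was lower in 2 and higher in 2. The *Lum*-rich cells lay mainly on one side of this split, with 33 of the 37 among the 115 cells without a *Higd1b* UMI. The contractile genes took a median of 4.03% of UMIs in cells with *Higd1b* and 4.25% in cells without, and libraries ran in both directions. The share was lower with *Higd1b* in control 1 (4.61 against 5.15%), control 2 (3.504 against 4.07%) and *Sox17*-cKO 2 (3.62 against 4.87%), and higher in *Sox17*-cKO 1 (6.59 against 3.85%). *Acta2* was at 17130 against 18054 CPM and *Myh11* at 1568 against 1567, each higher in 2 libraries and lower in 2, and *Cald1*, the actin-binding protein caldesmon, at 2358 against 1885. *Cnn1* stood apart from them, lower in all 4 (315.5 against 692.1 CPM).

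The *Lum*-rich cells were then left out, a step chosen after the data were seen. Among the remaining 122 cells with and 82 without a *Higd1b* UMI, *Cox4i2* (452.0 against 102.4 CPM), *Agtr1a* and *Abcc9* were still higher in all 4 libraries, and *Kcnj8* in 3. *Cnn1* (313.0 against 869.6 CPM), *Synpo2* (87.7 against 154.5) and *Dcn* (85.1 against 282.9) were lower in all 4. *Acta2* (17548 against 24030 CPM), *Tagln* (13341 against 18001) and *Eln* (4764 against 10517) were lower in 3, the exception being *Sox17*-cKO 1. Other contractile genes did not run this way: *Cald1* was at 2369 against 2347 CPM and higher in 3 libraries, while *Mylk* (1344 against 1338) and *Tpm1* (3041 against 3147) were each higher in 2 and lower in 2. *Myh11* was lower in 3, with control 1 as the exception. The median contractile share was 4.07% against 5.68%, and within *Sox17*-cKO 1 it was 6.61% against 5.02%. Over the 241 cells, which share 4 libraries and differ in depth, the rank correlation of UMI shares was -0.51 between *Higd1b* and *Eln* (-0.75 to -0.11 within libraries), -0.30 between *Higd1b* and *Acta2* (-0.46 to 0.05), 0.53 between *Higd1b* and *Cox4i2* (0.26 to 0.64) and -0.43 between *Acta2* and *Pdgfrb* (-0.55 to -0.31). *Acta2* and *Tagln* ran together, at 0.86 (0.79 to 0.92). These are descriptions of the selected cells.

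**Figure D3:**
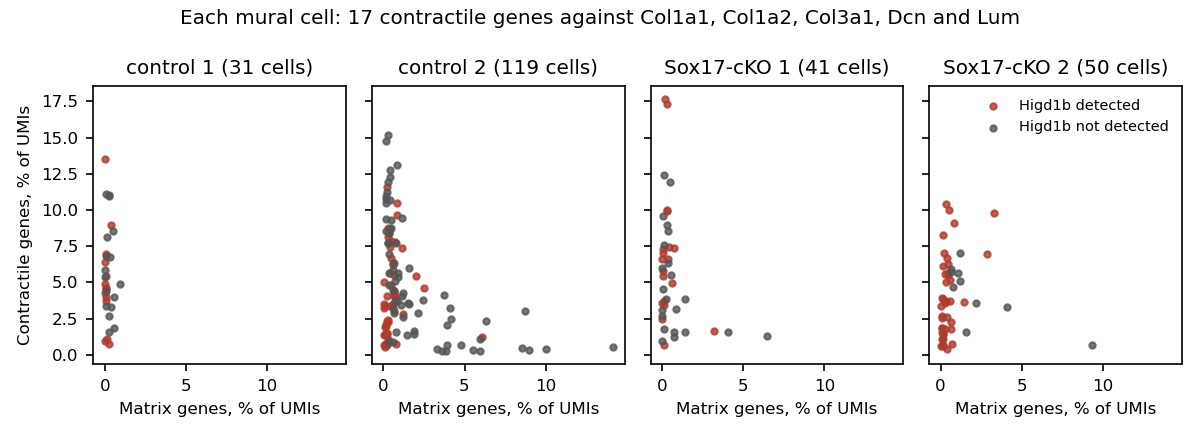
Each point is 1 mural cell, with the summed UMIs of *Col1a1*, *Col1a2*, *Col3a1*, *Dcn* and *Lum* (x axis) and of 17 contractile genes (y axis) as percent of its UMIs, in 4 panels for the libraries. Red points had a *Higd1b* UMI, and the cells with high matrix shares, most of them in control 2, are mainly grey points with low contractile shares.

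Replicates of the same genotype differed in several of these genes. In mural cells, *Tpm1*, a tropomyosin, was at 4466 CPM in control 1 and 4667 in *Sox17*-cKO 1, but at 1854 in control 2 and 1947 in *Sox17*-cKO 2. *Synpo2* and *Myh11* were likewise higher in both replicate 1 libraries, *Myh11* at 2844 and 2062 against 1310 and 808.5 CPM. *Vtn* ran the other way, at 22.0 and 40.7 CPM in the replicate 1 libraries and 133.8 and 299.3 in the replicate 2 libraries. The mean level of *Tpm1* was 3160 CPM in controls and 3307 in *Sox17*-cKO libraries, and that of *Kcnj8* 96.3 and 111.2, so for these genes replicates differed more than genotypes. Their link to cell composition, software version or dissociation was not tested. Fewer cells of one kind and less RNA per cell cannot be told apart in such sums.

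The genotype comparison asks whether mural cells differ when *Sox17* is deleted in the gonadal somatic lineage. With 2 libraries against 2, none of 4792 genes tested passed (percent called 0.00; smallest adjusted p = 0.9995 by edgeR), 45 had an unadjusted p under 0.05, and DESeq2 also called 0, with 14 under 0.05 unadjusted. Where nothing differs, a calibrated test would put a share of about 0.05 of the genes under 0.05 unadjusted, far more than these 45 and 14. The test without replicate number was thus conservative, and its 0 calls say little. None of the lists held a called gene. With replicate number as a term, which is also the Cell Ranger version, 308 genes had an unadjusted p under 0.05. Of these, 25 passed after adjustment, 15 of them higher. They included *Igf1* (-2.38, adjusted p = 1.65e-06), *Rgs4* (1.30, adjusted p = 0.00415), *Eln* (-0.76, adjusted p = 0.0432) and 5 of the 7 chemokine and cytokine genes tested. The 308 of 4792 genes were only somewhat more than a share of 0.05. With 4 libraries, the fit with replicate number leaves almost no residual spread. Its p-values therefore rest largely on the variance pooled over genes. A p that misses the threshold does not show that the genotypes were alike, and single genes were estimated loosely: *Pdgfrb* differed by 0.26 ± 0.45 on the log2 scale and *Acta2* by 0.02 ± 0.31.

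Some list genes whose groups did not overlap, chosen after their values were seen, are given as values. Such a pattern was common, since the groups did not overlap for 23.3% of all genes tested. *Igf1*, insulin-like growth factor 1, was at 83.8 and 257.3 CPM in controls and 21.9 and 44.7 in *Sox17*-cKO libraries, with no overlap (-2.48 ± 0.64, adjusted p = 0.9995). *Tcf21* was at 132.3 and 187.0 against 84.5 and 92.9 CPM (-0.93 ± 0.37), and *Eln* at 6630 and 8102 against 5293 and 3843 (-0.74 ± 0.32). *Rgs4*, a regulator of G-protein signalling like *Rgs5*, was at 216.0 and 127.0 CPM in controls and 341.0 and 492.0 in *Sox17*-cKO libraries (1.25 ± 0.41). *Col4a1*, a basement membrane collagen, was at 1393 and 1314 against 2208 and 2370 CPM (0.70 ± 0.32). A *Higd1b* UMI was found in 48.4, 43.7, 46.3 and 80.0% of the mural cells of the 4 libraries. Cells with it had more *Rgs4* (353.9 against 133.2 CPM) and *Col4a1* (2013 against 1346), each in 3 libraries, and less *Eln* (4789 against 8432) in all 4. Whether this mix of cells bears on the genotype values was not tested. Matrix genes, read over 14 tested members, had a median log2 fold change of -0.54 against -0.0016 over all genes tested, with control 2 holding 29 of the 37 *Lum*-rich cells beside it. The direction rested on control 2: the summed level of the list was 10554, 34784, 14465 and 18887 CPM, and without control 2 the median turned to 1.62 (1.59 with genes at 0 UMIs in control 1 set to the bound that 3 UMIs allow), with *Dcn* (2.76, adjusted p = 0.0273) and *Lum* (adjusted p = 0.00172) higher in *Sox17*-cKO. Control 1, then the only control, had 0 *Lum* UMIs, so no fold is given for *Lum*. With members of at most 1 *Lum* UMI the median was 0.096 over 11 genes tested, and it was 0.019 without cells with other-lineage markers. The interstitial progenitor list, which holds *Igf1* and *Tcf21*, had a median of -0.58 over 5 genes tested. In the same 2 alternatives it was -0.16 over 4 and 0.11 over 3 genes tested.

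Chemokine genes were uneven between libraries and cells, and their values ran in both directions. *Cxcl1*, which recruits neutrophils, was at 4.41 and 154.2 CPM in controls and 290.9 and 323.4 in *Sox17*-cKO libraries (1.70 ± 0.87), and *Ccl2*, which recruits monocytes, at 4.41 and 110.0 against 281.5 and 158.3 (1.66 ± 0.83). *Ccl7*, which also recruits monocytes, ran the other way, at 0.00 and 213.1 CPM against 53.2 and 17.2 (-1.80 ± 1.21). None of the 3 passed, whereas with replicate number as a term all did (*Cxcl1* adjusted p = 1.65e-06, *Ccl2* adjusted p = 0.00039, *Ccl7* adjusted p = 0.0397), as did *Il6* (1.67) and *Ccl11* (1.25). Few cells carried these UMIs: in *Sox17*-cKO 1, 1 of 41 cells held 60 of 90 *Ccl2* UMIs and 58 of 93 *Cxcl1* UMIs. That library's 5 *Lum*-rich cells held 62 of the 90 *Ccl2*, 58 of the 93 *Cxcl1* and 16 of the 17 *Ccl7* UMIs. In cells that were not *Lum*-rich, *Ccl2* was at 4.41 and 91.7 CPM in controls and 97.7 and 175.8 in *Sox17*-cKO libraries, and *Cxcl1* at 4.41 and 113.4 against 122.2 and 332.6. In control 1 a single UMI of *Cxcl1* and of *Ccl2* was found among 31 cells. A list of 10 dissociation response genes was also lowest there, with sums of 4832, 10305, 7996 and 8343 CPM in mural cells. In myoid-like cells control 1 had the highest sum of that list, 13135 CPM. A link between dissociation and the chemokine values was not tested. Without control 2, which leaves control 1 as the only control, the fitted log2 fold change of *Cxcl1* was 5.95 and that of *Ccl2* 5.47. That of *Ccl7* was -2.66 without control 1, but its direction turned without control 2. Control 1 had 0 *Ccl7* UMIs, so no fold is given for that fit here. *Cxcl10*, a ligand of CXCR3 named after its values were seen and left out by the filter on low counts, was at 0.00, 7.94, 21.9 and 275.2 CPM, with 32 of the 80 UMIs of *Sox17*-cKO 2 in 1 cell. *Ccl11*, which recruits eosinophils, had 238 UMIs in mural cells against 2 in 3433 myoid-like and 1 in 864 stromal cells. By library they were 1, 131, 35 and 71, with 30 of the 35 in 1 cell. The list as a whole was mixed: of 7 genes tested against myoid-like cells 4 were higher and 2 lower. Against stromal cells 1 of 6 was higher and 3 were lower. *Cxcl12*, the ligand of CXCR4, was at 123.4, 122.4, 75.1 and 103.2 CPM.

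**Figure D4:**
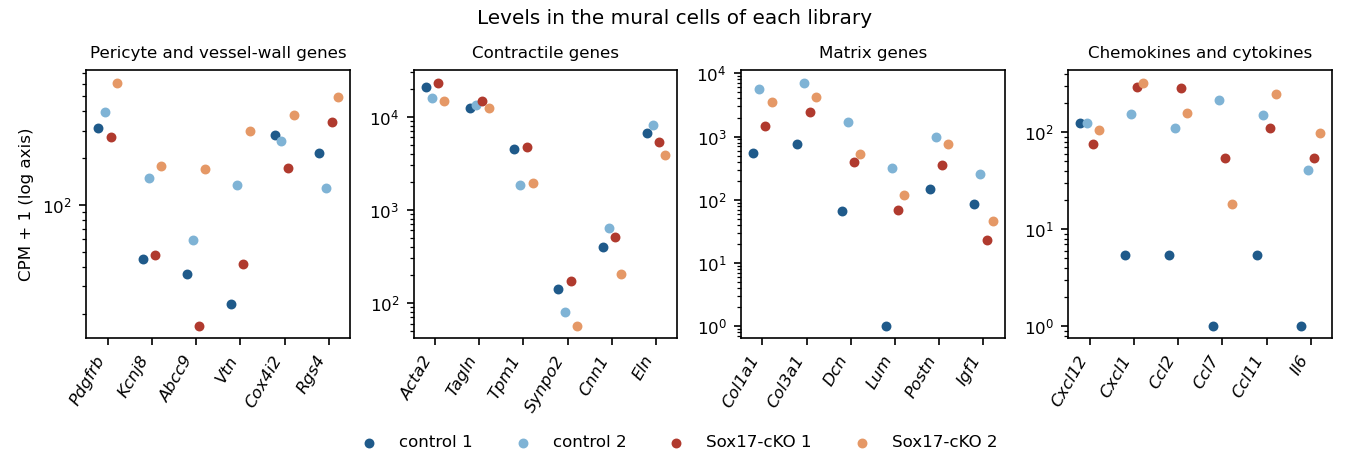
Level in CPM plus 1 on a log axis (y) of 24 genes in the mural cells of each library, with 1 point per library and 4 panels by role. Control 1 has the lowest points for *Lum*, *Cxcl1*, *Ccl2*, *Ccl7*, *Ccl11* and *Il6*, and replicate 2 libraries lie above replicate 1 libraries of the same genotype for *Kcnj8*, *Abcc9* and *Vtn*.

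Several defining markers of other cell types were not detected in mural cells. *Tie1*, *Tek* and *Sox18* of endothelium, *Amh* of Sertoli cells, *Insl3* and *Hsd17b3* of Leydig cells, *Ptprc* of leukocytes and *Krt7*, *Krt8*, *Krt18* and *Cdh1* of epithelia had 0 UMIs. Summed endothelial markers ran from 188.2 to 317.4 CPM, of which most was *Esam*, an adhesion molecule at 291.0, 106.6, 190.8 and 127.3 CPM in mural cells and at 0.571 ± 0.524 in myoid-like cells (8.33 ± 0.29). Summed Sertoli markers were at 638.2 to 953.0 CPM, beside 830.8 to 1278 CPM in myoid-like cells. Myoid-like cells, unlike mural cells, were limited to at most 1 UMI of *Sox9* plus *Amh*, both on that list. Summed Leydig markers were at 75.7 to 132.3 CPM, with 2 of 8 at 0, beside 119.7 to 153.4 CPM in myoid-like cells. Summed germ cell markers, without the *Ddx4* and *Dazl* that the rule limits, were at 185.9 to 422.3 CPM, beside 119.2 to 362.7 CPM in myoid-like cells. Of 256 UMIs of the 10 macrophage markers, 238 were in 1 cell of control 2, which held 61 of 61 *C1qa* UMIs. With cells that carried markers of another lineage left out, the genotype comparison still called 0 genes, and 1522 genes differed from myoid-like cells and 1350 from stromal cells.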

How the data were processed

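Single-cell RNA was measured in 4 libraries of P14 mouse testis, 2 control and 2 *Sox17*-cKO. The authors loaded cells for 5000 per library on the 10x Genomics 3' platform and counted UMIs with Cell Ranger (6.0.2 or 6.1.2 per the file headers) against mm10 (GRCm38). The deposited values are raw UMI counts per gene and barcode, not normalized, and the integrated table of the series was not used. The limit of the study on mitochondrial UMIs was not applied, and 10% was tried as an alternative. No doublet caller was run. Instead, cells with markers of another lineage were left out as an alternative.

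The cells, the gene lists and the comparison classes were chosen with earlier results of these data known. Myoid-like and stromal cells also had at most 1 UMI of *Cldn5* plus *Pecam1*, of *Cyp11a1*, of *Ddx4* plus *Dazl* and of *Sox9* plus *Amh*. Endothelial cells had at least 1 UMI each of *Cldn5* and *Pecam1*, at least 3 of the pair, and at most 1 of *Rgs5* and of *Ddx4* plus *Dazl*. Germ cells had at least 5 of *Ddx4* plus *Dazl*. UMIs were summed per class and library and tested in R 4.3.3 with edgeR 4.0.16 (TMM, filterByExpr, quasi-likelihood test, two-sided, Benjamini-Hochberg, 0.05); DESeq2 1.42.0 was an alternative. Standard errors are the fold change over the root of F. CPM use all UMIs. Named genes were the list genes, *Sox17*, the genes of the rule, and up to 5 per direction with the smallest adjusted p whose libraries agreed. The steps were tested on simulated data. Coordinates come from GENCODE vM21 and promoters from RefSeq. The study states biological replicates, each a pool of 3 pups, so genotype p-values without the replicate term measure the spread between pools. With that term, the part of the spread that follows replicate number is taken out. In the class comparisons, p-values measure how evenly the difference between classes held over the libraries.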

Additional observations from a re-analysis of the deposited data

Results flagged for a closer look

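Outside the range of 1000 to 4500 detected genes, 11 further barcodes met the marker rule, beside the 241 retained. Of these, 4 had fewer than 1000 genes and 7 had more than 4500, and control 1 held 0, control 2 held 4, and the *Sox17*-cKO libraries 4 and 3. They entered no comparison. Groups of 2 libraries were too small to look for a library that stands apart.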

How the results depend on the processing

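The genotype count was 0 by edgeR and by DESeq2, and stayed 0 with at most 10% mitochondrial UMIs, without cells with other-lineage markers, with the *Rgs5* minimum at 3 or 1, and with members of at most 1 *Lum* UMI. It became 12 with no filter on low counts, 11 of them lower in *Sox17*-cKO, among them *Igf1* (-2.50, adjusted p = 0.00139) and *C1qa*, *C1qb* and *C1qc*, whose UMIs lay nearly all in 1 cell; the 1 higher was *Cxcl10* (4.47, adjusted p = 7.53e-09), which also passed without control 1, control 2 or *Sox17*-cKO 1. Leaving out 1 library gave 0 to 19 calls: 17 without control 1, 19 without control 2, 1 without *Sox17*-cKO 1 and 0 without *Sox17*-cKO 2. Each such fit keeps a group with 1 library, which is assumed to vary like the others. With the replicate block 25 genes passed, 15 higher and 10 lower, with *Igf1* at -2.38. Deviations of same-numbered libraries correlated at 0.449 over 4800 genes, and same-numbered libraries share a Cell Ranger version; the labels do not say that they share a litter or day, and the comparison was planned without the block. The genotype value of *Acta2*, 0.02, turned to -0.52 without cells with other-lineage markers, -0.031 with at most 1 *Lum* UMI, -0.15 without control 2, -0.37 without *Sox17*-cKO 1, -0.010 with the replicate block and -0.050 at 1 *Rgs5* UMI, with -0.37 to 0.30 over libraries left out. That of *Ccl7*, -1.80, turned to 6.32 without control 2, with -2.87 to 6.32 over libraries left out; the remaining control 1 had 0 *Ccl7* UMIs, so 6.32 is a fitted value that depends on the prior count and not a measured fold. That of *Pdgfrb* ran from -0.44, without *Sox17*-cKO 2, to 0.70.

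The calls against myoid-like cells numbered 2161, and 1657 to 2006 when 1 library was left out. Those against stromal cells numbered 1926, and 1389 to 1945. Genes lower than in stromal cells went from 875 of 6482 tested to 1383 of 17658 with no filter, so more genes were tested. The cause of the change was not tested. Genes higher went from 1051 of 6482 tested to 627 of 3897 without cells with other-lineage markers, so fewer genes were tested. Among 75 named gene comparisons between classes, 661 of 670 alternative values kept their direction and side of the threshold, and no direction turned. The 8 that lost their call were of *Mylk*, *Postn* and *Lum*. The share difference of -0.594 percentage points ran from -1.49 to 0.303 over libraries left out, turning without control 2. With 226837 UMIs in control 1, 1 UMI is 4.41 CPM.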
